A study of Mus musculus with 16 samples.

Results

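A set of 1242 stretches of the mouse genome carried H3K27me3 in 2 lists made from stem cells of 4-month-old mice. None of the 3 lists made from stem cells of 24-month-old mice held them. A further 4-month list took no part in the choice and touched 14.8% of them. H3K27me3, trimethylation of lysine 27 on histone H3, is the mark of Polycomb repression. The study mapped this mark, H3K4me3 and H3K36me3 by chromatin immunoprecipitation and sequencing in hematopoietic stem cells of C57BL/6 mice, to ask how the chromatin of these cells differs with age. The cells were isolated from bone marrow and sorted as SP-KSL-CD150+, a combination of dye efflux and surface markers that enriches long-term stem cells. No treatment or mutation is named for either age. H3K27me3 was measured in 3 libraries from 4-month-old mice (young replicates 1 to 3) and 3 from 24-month-old mice (old replicates 1 to 3). H3K36me3 had 3 libraries per age (replicates 4 to 6) and H3K4me3 had 2 per age (replicates 7 and 8). The labels describe each sample as a technical replicate of a numbered biological one and do not state how many mice were pooled, so p-values measure only the spread between these libraries, which may be technical. Markers of the sorted cell type could not be checked, because gene annotation of the build mm9 was not used here. Regions are therefore given by mm9 position, and what genes lie in them is not stated.

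The members were chosen by their H3K27me3 islands, the broad enriched stretches that a peak caller writes as 1 interval each. Islands of 5 libraries were joined where they overlapped or touched, which gave 71865 merged regions. A merged region was kept when an island of young replicate 2 and one of young replicate 3 touched it and no island of the 3 old libraries did. These 1242 regions were 1.73% of all merged regions and spanned 6.75 Mb. Young replicate 1 took no part, because its list overlapped little with the others: it touched only 16.7% of the 5973 regions that all 5 other libraries shared. All H3K27me3 values of the 5 libraries below describe what the rule selected and were not tested. The 5 lists differed in length, with 18741 islands in young replicate 2, 45846 in young replicate 3, 38609 in old replicate 1, 17752 in old replicate 2 and 47197 in old replicate 3. How many reads each list came from is unknown, so a missing island can mean less of the mark, fewer cells that carry it or a list that was called less deeply, and these cannot be told apart.

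Polycomb repressive complex 2 writes H3K27me3 and keeps developmental genes silent in stem cells, often as broad domains. H3K4me3 marks promoters, and promoters that carry it together with H3K27me3 are called bivalent, a state typical of genes poised for later use. H3K36me3 is laid down over the bodies of transcribed genes and impairs the activity of the Polycomb enzyme on the same nucleosome, so it and H3K27me3 usually occupy different stretches.

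By median length, the regions were shorter than the compared sets held by more lists, and longer than all merged regions. Their length ran from 400 to 22000 bp with a median of 5000 bp and quartiles of 3600 and 6800 bp, and 71 reached 10 kb. Regions shared by all 5 libraries had a median of 16600 bp, and the 918 regions found in all 3 old libraries and neither young replicate 2 nor 3 had a median of 7800 bp. Across all merged regions, most of which came from 1 or few libraries, the median was 3000 bp. Regions held by both young libraries and 1 old library (1459) or 2 old libraries (1715) lay between, at 7000 and 9400 bp. Length therefore rose with the number of lists that held a region, which merging by itself also produces, because more lists bring more islands to join.

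Within a region the 2 young libraries overlapped only partly. Young replicate 2 covered 77.6% of the joint length and young replicate 3 covered 66.3%, with medians per region of 3600 and 3100 bp. A median of 2000 bp, or 46.7% of the region, lay under islands of both. In 588 regions (47.3%) the part under both libraries reached 50% of the region or more, and in 12 regions the islands of the 2 libraries only abutted, with 0 bp under both. The longer coverage came from young replicate 2 in 702 regions and from young replicate 3 in 483, and 57 were equal. A single island in each library made up 1114 of the regions.

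The islands that made up the set ranked low or in the middle of their lists. Each island carries a score from the authors' caller, whose unit is not stated, so it was used as a rank: its percentile is the share of islands in the same list with a lower score. In young replicate 2 the member islands had a median score of 32, at percentile 28.9, and in young replicate 3 a median of 52, at percentile 50.2. Islands in the regions shared by all 5 libraries had median percentiles of 67.9 and 77.8 in the same lists. Those of the regions missing from 2 of the 3 old lists sat between, at 36.7 and 56.9. Taking the best island of each library, 208 members reached the upper part of both lists (percentile 50 or more), 485 were below it in both, and 0 reached percentile 90 in both. Scores ended at 164 in young replicate 2 and 272 in young replicate 3, whereas the highest of the full lists were 9590 and 10048. The 24-month-only regions had median percentiles of 51.6 (old replicate 1), 34.1 (replicate 2) and 53.9 (replicate 3), so their islands too were far from the top.

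Most members had an H3K27me3 island of an old library within 10 kb. The nearest island of any old library was between 200 and 442600 bp away, with a median of 5400 bp. For old replicates 1, 2 and 3 taken singly the medians were 11600, 29200 and 9200 bp. An old island lay within 1 kb of 129 members (10.4%), within 5 kb of 567 (45.7%) and within 10 kb of 826 (66.5%), and 34 members were 100 kb or more from any. Whether old islands gather beside the members was not tested. The rule keeps old islands out of the regions, which lowers old coverage near the centres: old replicate 1 covered 6.04% at 5 kb to the left. The values at 10 and 20 kb therefore cannot decide it. At 10 kb left and right of the centres old replicate 1 covered 10.8% and 11.4%, replicate 2 10.9% and 10.6%, and replicate 3 11.8% and 12.6%. At 20 kb these were 10.8% and 11.4%, 12.4% and 11.5%, and 12.6% and 10.5%. Counting libraries, 77 members had all 3 old libraries within 5 kb, 176 had 2, 314 had 1 and 675 had none. The large shared domains were farther off, with a median of 65000 bp to the nearest region held by all 5 libraries. For the 24-month-only regions the nearest island of young replicate 2 or 3 was at a median of 7800 bp, and 350 of 918 (38.1%) had one within 5 kb.

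The edge of the rule shows in the regions just inside and just outside it. On chromosome 2, 144859601-144866000 had 4800 bp covered in young replicate 2 and 5400 bp in young replicate 3, and the old lists stopped 600 bp (replicate 1), 400 bp (replicate 2) and 200 bp (replicate 3) short of it. Chromosome 2, 151676001-151684400, with 8400 and 1800 bp in the young libraries, missed an island of old replicate 3 by 200 bp. Chromosome 1, 98867001-98872800 had 5200 and 1400 bp, and the nearest island of old replicate 3 was 200 bp away while that of old replicate 2 was 882600 bp away. Just outside, chromosome 11, 67083201-67091600 had 8400 and 1800 bp in the young libraries and 200 bp in old replicate 1, which put it out of the set. Chromosome 11, 3835801-3839000 (2200 and 1400 bp) and chromosome 12, 102680001-102684800 (2200 and 3200 bp) were each left out through 200 bp of old replicate 3. Island bounds lie on a grid of 200 bp, so these cases differ by 1 step of the grid.

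**Figure D1:**
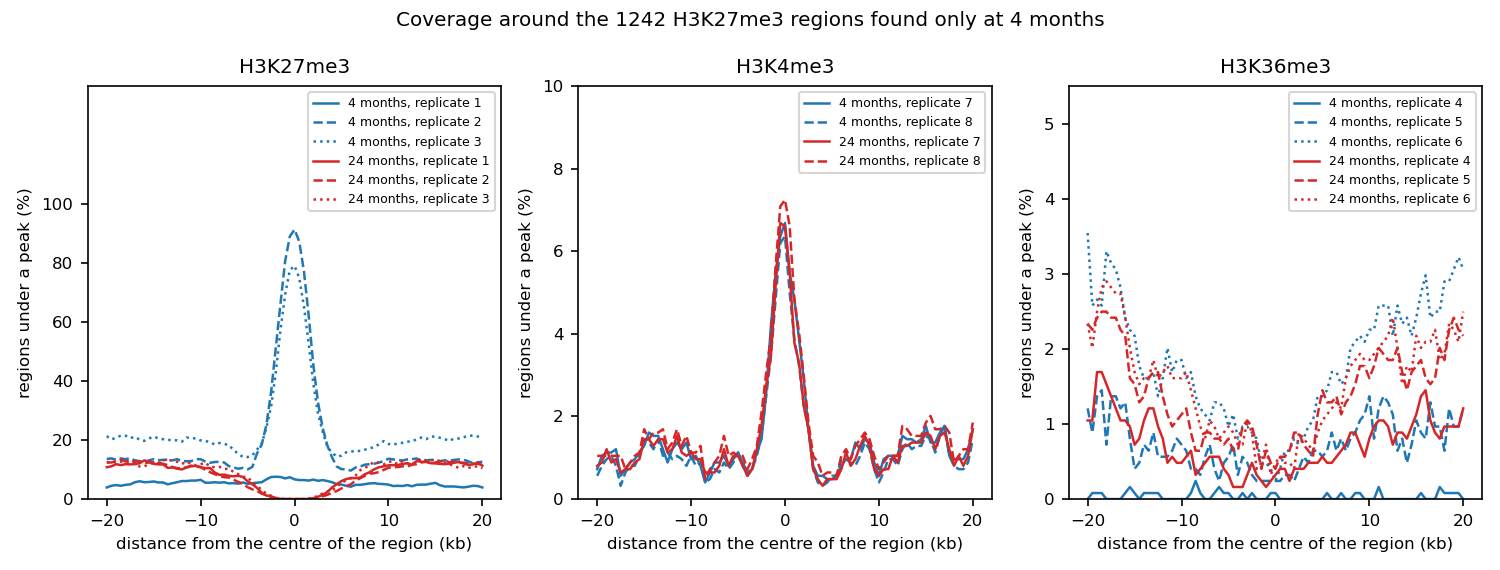
Share of the 1242 regions (y, %) that lie under a peak at each distance from the region's centre (x, kb), 1 line per library, with 4-month libraries in blue and 24-month libraries in red. H3K27me3 of young replicates 2 and 3 peaks at the centre and the old libraries fall to 0 there, which the rule sets. H3K4me3 peaks at the centre in all 4 libraries, and H3K36me3 dips there in all libraries but young replicate 4, which stayed near 0.

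Young replicate 1, which the rule did not use, held few of the regions. It touched 184 of the 1242 (14.8%) and covered 6.51% of their length. The same library touched 8.61% of the 24-month-only regions, 11.1% of all merged regions and 16.7% of the regions shared by the 5 other libraries, covering 2.57%, 4.47% and 3.73% of their length. By regions touched, the members thus lay between all merged regions and the shared regions, and by length covered they lay above both. The list of young replicate 1 was long, with 46988 islands over 168.9 Mb. How much of any stretch of the genome such a list would cover was not tested, so these shares are no added support for the members. At the centre of the members it covered 6.68%, against 6.52% and 4.91% at 10 kb to the left and right and 3.95% at 20 kb on either side. With this library required as well, 178 regions met the rule.

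The regions were spread over the genome. All autosomes held members, from 33 on chromosome 19 to 96 on chromosome 9, and chromosome X held 6. Per 1000 merged regions the number ran from 12.2 on chromosome 13 to 22.4 on chromosome 11 among autosomes, and was 9.74 on X. The median gap from 1 member to the next was 734100 bp. With gaps under 50 kb joined, 978 members (78.7%) stood alone and 264 fell into 115 runs of 2 to 5. One run of 5 lay at chromosome 17, 14289001-14396800, where 35400 of 107800 bp were member sequence, and another at chromosome 15, 94530401-94652200, with 34600 of 121800 bp. A run of 4 at chromosome 8, 10120801-10218800 had the highest member length, 47800 of 98000 bp. The runs were picked out after their sizes were seen.

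The 8 regions with the most H3K27me3, by mean covered length over the 2 young libraries, had their best islands at percentile 63 or more in both lists. The first, chromosome 13, 58053801-58075800, was covered over 22000 bp in young replicate 2 and 12600 bp in young replicate 3, with best scores of 164 and 124. Old islands stopped 1400, 2000 and 1800 bp from it in old replicates 1, 2 and 3, so it is a gap in the old lists with the mark close by. Chromosome 11, 67508601-67526200 had 16200 and 8600 bp covered and scores of 150 and 128. In the chromosome 8 run, 10172801-10188800 had 10200 and 15600 bp, including the highest member score of young replicate 3 (272), and 10132001-10145200 had 11600 and 12000 bp. Neither had an H3K4me3 or H3K36me3 peak in any library. On chromosome 7 these members were 120265601-120279600 with 13400 and 9600 bp, 81230201-81247000 with 12200 and 10400 bp and 126636001-126648400 with 11600 and 10000 bp. Of the 8 members with the largest mean covered length, only chromosome 8, 124752401-124765000 carried H3K4me3: it had 12200 and 11400 bp of H3K27me3 at 4 months, and its H3K4me3 covered 1365 and 1283 bp in the young and 1290 and 1451 bp in the old libraries. The nearest old island to it was 17400 bp away in replicate 3 and 146800 bp or more away in the other two. Chromosome 17, 27858201-27868200, among the 5 with the best rank in both lists, had 9600 and 9200 bp, scores of 113 and 152, neither other mark, and its nearest old island at 32000 bp.

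H3K4me3, which the rule did not use, lay on 12 to 13% of the regions at both ages. At 4 months, peaks of the mark touched 151 (12.2%) of the members in replicate 7 and 150 (12.1%) in replicate 8. At 24 months they touched 164 (13.2%) in replicate 7 and 163 (13.1%) in replicate 8. Both old libraries were above both young ones. At 4 months the mean was 12.1% ± 0.0569 (SD, n = 2), and at 24 months it was 13.2% ± 0.0569 (SD, n = 2), a difference of 1.05 percentage points with a two-sided exact permutation p of 0.33, below which 2 against 2 libraries cannot go. The old lists were longer (18675 and 19923 peaks against 16314 and 16258), and with the same number of top-scoring peaks from every list the difference was -0.28 percentage points. The rise was also not set apart from other regions. Peaks touched 4.03% and 3.87% of all merged regions in the young and 4.42% and 4.65% in the old libraries. Relative to these, the members' share was 1.62 ± 0.03 (SD, n = 2) at 4 months and 1.54 ± 0.06 (SD, n = 2) at 24 months on the log2 scale, a difference of -0.08 (exact permutation p = 0.33) whose direction turned with other thresholds.

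H3K4me3 lay on a larger share of these regions than of those with H3K27me3 only at 24 months, in each of its 4 libraries. The 24-month-only regions were touched in 2.94% and 2.83% of cases in the young and 2.83% and 4.03% in the old H3K4me3 libraries. The difference was 9.22, 9.25, 10.4 and 9.09 percentage points in the 4 libraries, a mean of 9.48, positive in 4 of 4, with an exact two-sided sign-flip p of 0.125, the smallest that 4 libraries allow. This p covers only the spread of the H3K4me3 libraries, not that of the H3K27me3 lists that fixed both sets. The 4 libraries also largely marked the same regions: of 175 members with H3K4me3 in at least 1, 137 had it in all 4. The sets are not built alike, since one needs 2 lists and the other 3, so 3 other pairs of sets were compared after the data were seen. With 2 libraries of each age (1866 and 1796 regions) the means were 10.5% and 2.78%. Among regions of 4 to 8 kb (675 and 458) they were 12.5% and 2.73%. Among regions with no island of the other age within 5 kb (675 and 568) they were 18.6% and 3.57%. Regions that also touched 1 old library held H3K4me3 in 8.57% to 9.39% of cases, and regions shared by all 5 H3K27me3 libraries in 28.8% to 34.7%, so the members stood above the first and below the second in every library. Regions held by both young and 2 old libraries were touched in 11.8% and 11.7% of cases at 4 months and 12.8% and 13.3% at 24 months. The members differed little from these and were below them in old replicate 8, so a share of 12 to 13% was not particular to regions missing from all old lists. These sets differ in length, as given above, and the part of length in the shares was not tested.

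**Figure D2:**
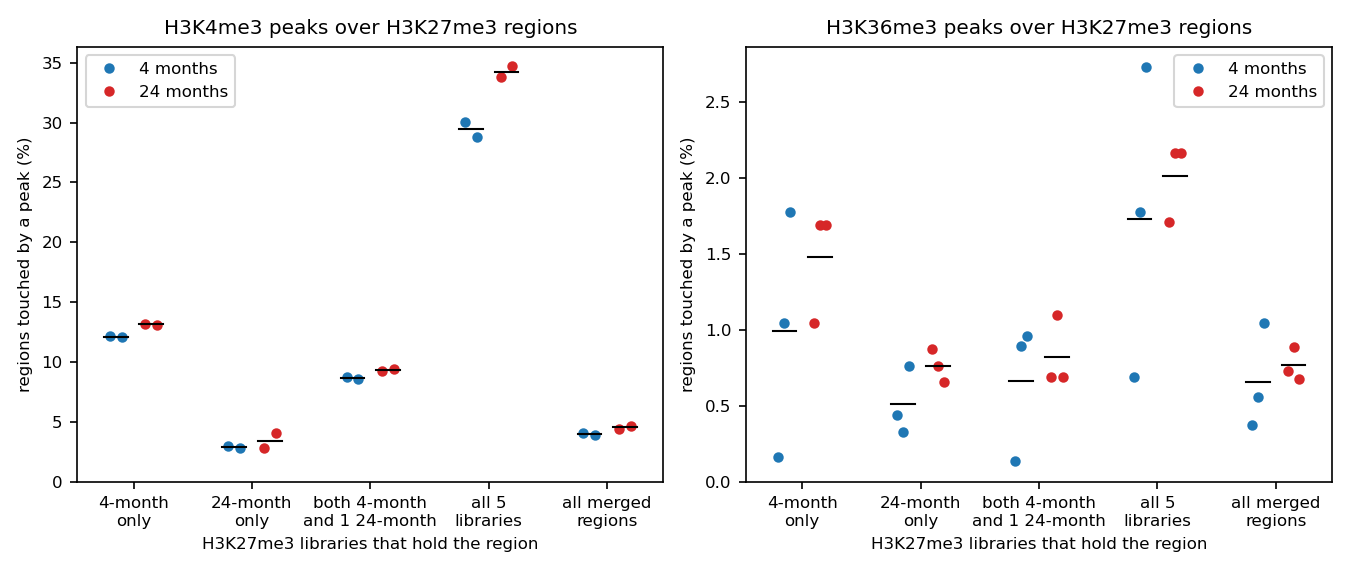
Share of regions touched by H3K4me3 (left) and H3K36me3 (right) peaks (y, %) for 5 sets of H3K27me3 regions (x), with 1 point per library, 4 months in blue, 24 months in red and the mean as a line. H3K4me3 lies at 12.1 to 13.2% in the 4-month-only regions and 2.83 to 4.03% in the 24-month-only regions, and H3K36me3 is under 3% in every set.

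Most members with H3K4me3 had it in every library. The mark was present in all 4 libraries in 137 members (11.0%), in 1 to 3 libraries in 38 and in none in 1067 (85.9%). Among all merged regions 3.40% had it in all 4, and among the 24-month-only regions 2.07% (19 regions). These 137 regions were thus H3K4me3-positive at both ages, with H3K27me3 islands in both young lists of the rule and in no old list. The length under H3K4me3 in them had medians of 1625 and 1542 bp in the young and 1518 and 1731 bp in the old libraries, or 34.1% to 39.2% of the region. Both old libraries had more H3K4me3 length than both young ones in 25 of the 137 (18.2%), and 19.6% of the 2442 merged regions with the mark in all libraries did so. Both old libraries had less in 18 (13.1%), against 13.8% of those 2442. The median change from 4 to 24 months was 0.03 on the log2 scale for the members and 0.03 for all 2442, so H3K4me3 length moved little at either. The score 3100 recurs in these lists, and 47.7% to 59.7% of their peaks had that score or a higher one. A peak at or above 3100 touched 76 and 73 of the 137 in the young and 80 and 80 in the old libraries.

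The members with H3K4me3 in all libraries differed in place from those without it. Their nearest old H3K27me3 island was at a median of 24200 bp, against 5000 bp for the 1067 without H3K4me3. An old island lay within 5 kb of 26 (18.98%) of them and of 530 (49.7%) of the members without the mark. The distance to the nearest region shared by all 5 H3K27me3 libraries was 162200 bp against 52400 bp. They were slightly shorter (4400 against 5000 bp), and their H3K27me3 ranked higher, at median percentiles of 39.3 against 28.9 in young replicate 2 and 60.6 against 52.3 in young replicate 3. Young replicate 1 touched 6 (4.38%) of them and 177 (16.6%) of those without H3K4me3. The 38 with H3K4me3 in some libraries had a median distance of 18900 bp, closer to the first class. These values describe classes of the same members and carry no test.

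**Figure D3:**
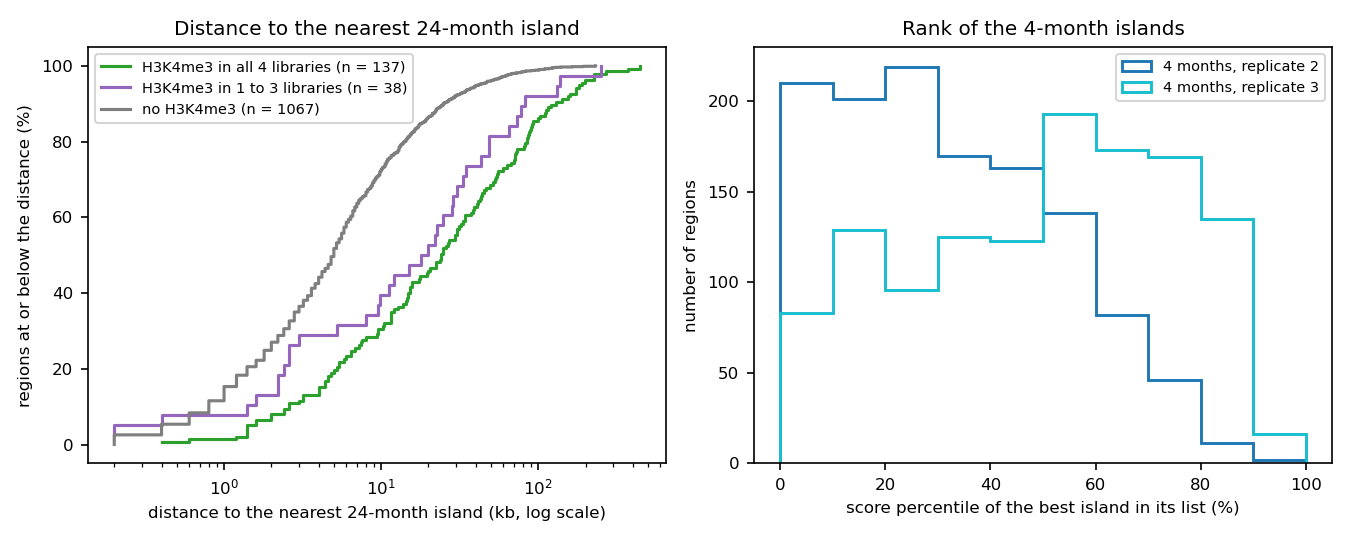
Left: cumulative share of the members (y, %) at or below a given distance to the nearest H3K27me3 island of any old library (x, kb, log scale), for members with H3K4me3 in 4, 1 to 3 or 0 libraries. The median is 24200 bp with the mark in all 4 and 5000 bp without it. Right: number of members (y) by the score percentile of their best island (x, %) in young replicates 2 and 3, which shows the lower ranks in young replicate 2.

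The members with the most H3K4me3 were covered over most of their length at both ages. Chromosome 6, 84535201-84540400, a 5200 bp region, had 4634 and 4142 bp under H3K4me3 in the young and 4425 and 5200 bp in the old libraries, and its H3K27me3 covered 4200 and 1800 bp at 4 months. The nearest old island of H3K27me3 was 86000 bp away. Chromosome 12, 88222601-88226000 was covered over all of its 3400 bp in each of the 4 libraries. Chromosome 4, 28739601-28745800 had 3510, 3512, 3528 and 3539 bp, nearly the same in all. Chromosome 11, 96212801-96216600 had 3293 and 2857 bp at 4 months and 3556 and 3748 bp at 24 months, and chromosome 2, 106532601-106536000 had 3223, 3286, 3103 and 3220 bp. In the last 2 the nearest old H3K27me3 islands were 6800 and 3000 bp away.

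Of the 5 members farthest from old H3K27me3, 4 also carried H3K4me3. The most distant, chromosome 10, 19568601-19573200, was 442600 bp from any old island, had 4000 and 3000 bp of H3K27me3 in young replicates 2 and 3, and had 2854, 2500, 2496 and 2735 bp of H3K4me3. Chromosome 3, 86349001-86354800, at 371000 bp, had 1711 and 2077 bp of H3K4me3 in the young and 2873 and 3358 bp in the old libraries. Its old values were both above its young values, and limma gave a log2 difference of 0.66 (SE 0.14) with an adjusted p of 0.173. Islands of young replicate 1, which the rule did not use, covered 1600 bp of the region. That library touched 14.8% of the members and 11.1% of all merged regions, so this overlap is no added support. H3K36me3 covered 783 bp of the region in young replicate 4 and 0 bp in the other 5 libraries. Chromosome 12, 86814601-86817600, at 270000 bp, carried H3K4me3 (3000, 3000, 2327 and 2976 bp) and H3K36me3 at both ages. Chromosome 17, 47807401-47811200, at 251800 bp, had 0, 879, 611 and 427 bp of H3K4me3. Only chromosome 2, 32187801-32197800, at 232000 bp, had neither of the other marks, with H3K27me3 over 9200 and 5800 bp.

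The covered length of H3K4me3 in each region was tested with limma on log2(bp + 200) across all merged regions covered in at least 2 libraries. Of 3219 regions 0 passed an adjusted p of 0.05 (0% called), and the lowest adjusted p among the 165 members that entered the test was 0.105. By p-values before adjustment, at the same threshold, 310 of the 3219 had more H3K4me3 at 24 months (9.63%) and 45 had less (1.4%). The members gave 10 and 1 of 165. Without limma's trend 133 of 3219 passed the adjustment (4.13%), among them 5 members, 4 with more and 1 with less of the mark at 24 months. The median log2 difference was 0.04 in the members tested and 0.06 in all regions tested. Members that entered the test had to carry H3K4me3 somewhere and do not stand for all 1242.

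A few members had H3K4me3 at 1 age only. It was in both old and no young library in 6 members (0.483%), against 0.274% of all merged regions, and in both young and no old library in 1 member, against 0.025% of all. These shares follow how often a set carries H3K4me3 at all. At least 1 library had it in 175 members (14.1%) and in 3678 of all merged regions (5.12%). Of the regions with the mark, 6 of 175 members and 197 of 3678 merged regions had it in the old libraries only. On that base the share was smaller in the members. In the young libraries only it was 1 of 175 and 18 of 3678. The 6 were singled out after their values were seen. Chromosome 15, 101305601-101312200 had 0 and 0 bp in the young and 676 and 798 bp in the old libraries, and chromosome 14, 35030201-35036000 had 0, 0, 765 and 669 bp. Chromosome 8, 10006001-10011200 had 0, 0, 550 and 666 bp, and chromosome 3, 96275201-96281600 had 0, 0, 480 and 694 bp. Chromosome 8, 74214201-74219400 had 0, 0, 691 and 1537 bp, together with H3K36me3 in 2 old libraries (891 and 466 bp in replicates 5 and 6) and in no young one. Chromosome 10, 40686201-40693000 had 0, 0, 413 and 799 bp. The 1 member that went the other way, chromosome 7, 4497601-4502800, had 846 and 751 bp in the young and 0 and 0 bp in the old libraries. The covered lengths of these 7 ran from 413 to 1537 bp where the mark was present. Their adjusted p-values in limma ran from 0.105 to 0.141, so none passed.

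H3K36me3 touched under 2% of the regions in every library. Its peaks touched 2, 13 and 22 members (0.161%, 1.05% and 1.77%) in young replicates 4, 5 and 6. In old replicates 4, 5 and 6 they touched 13, 21 and 21 members (1.05%, 1.69% and 1.69%). Over all merged regions the shares were 0.370%, 0.557% and 1.04% at 4 months and 0.731%, 0.885% and 0.678% at 24 months, so the members were above them in 5 of 6 libraries, all but young replicate 4. Among the members, the young values spanned the old ones. The young mean was 0.993% ± 0.806 (SD, n = 3), and that of the old libraries was 1.48% ± 0.372 (SD, n = 3), a difference of 0.483 percentage points (exact two-sided permutation p = 0.7, smallest possible 0.1). Relative to all merged regions the members' share was 0.16 ± 1.18 (SD, n = 3) at 4 months and 0.92 ± 0.40 (SD, n = 3) at 24 months on the log2 scale, a difference of 0.76 (exact permutation p = 0.4). Young replicate 4 had 6399 peaks where the other lists of this mark had 39362 to 84437, and without it the difference in the share was 0.0671 percentage points and the relative one 0.08. Within the sample numbers in the titles, which the labels do not explain, the difference was 0.886 for number 16, which includes that library, and 0.644 for number 18. The 24-month-only regions were touched in 0.436%, 0.327% and 0.763% of cases at 4 months and 0.871%, 0.763% and 0.654% at 24 months. The members were above them by a mean of 0.599 percentage points, in 5 of 6 libraries, with an exact sign-flip p of 0.0938, where 0.0313 was the smallest possible. This p too covers only the spread of the H3K36me3 libraries, not that of the H3K27me3 lists.

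H3K36me3 was thinner inside the regions than around them, at both ages. In young replicate 6 it covered 0.242% of the members at their centre, 3.54% at 20 kb to the left and 3.06% at 20 kb to the right. In old replicate 5 the same values were 0.403%, 2.33% and 2.17%, and in old replicate 6 they were 0.483%, 2.33% and 2.50%. Old replicate 4 (0.322%, 1.05% and 1.21%) and young replicate 5 (0.242%, 1.21% and 1.21%) had the same shape. H3K4me3 went the other way, with 6.68% and 6.36% of the centres covered in the young libraries, 6.60% and 7.25% in the old ones, and 0.403% to 1.13% at 10 kb on either side. Both shapes were thus seen in libraries of both ages, although the regions held H3K27me3 islands only in the 4-month lists.

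A change with age in the distance to the nearest peak of either mark was not shown. For H3K4me3 the median over members was 89736 and 93853 bp in the young and 78769.5 and 72800 bp in the old libraries, a log2 difference of -0.28 (exact permutation p = 0.33). The 24-month-only regions gave -0.27 and all merged regions -0.25. For H3K36me3 it was 413548, 159100 and 137962 bp at 4 months and 152516, 145390 and 151033 bp at 24 months, a log2 difference of -0.48 (exact permutation p = 0.7). The first of these is young replicate 4, and without it the difference was 0.01.

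A small number of members carried H3K36me3 over much of their length. Without young replicate 4, the mark was in every library in 7 members, in at least 1 in 33 (2.66%) and in none in 1209 (97.3%). Over all merged regions 0.355% had it in every one of these libraries and 1.53% in at least 1, against 0.564% and 2.66% of the members. Of the 33, 9 were among the 137 with H3K4me3 in all libraries (6.57%) and 20 among the 1067 without H3K4me3 (1.87%). Chromosome 15, 76004201-76011400 was covered over all 7200 bp in 4 libraries (replicates 5 and 6 of each age) and over 5926 bp in old replicate 4. The H3K27me3 islands of the 4-month cells overlapped this H3K36me3, with 3000 and 4400 bp. Chromosome 7, 19663601-19668000 had 2950 and 4391 bp in young replicates 5 and 6 and 3067, 2942 and 4195 bp in the old libraries. Chromosome 2, 60614601-60617200 had 779 and 2477 bp in the young and 1655, 2479 and 1462 bp in the old libraries. Chromosome 12, 86814601-86817600 had 1609, 1370, 1330, 1565 and 2487 bp, beside the H3K4me3 described above. All 4 had 0 bp in young replicate 4. Chromosome 12, 114374601-114382800, which ranked high in both young H3K27me3 lists (scores 108 and 204), carried both other marks too: H3K4me3 over 1125, 1174, 1226 and 1055 bp, and H3K36me3 over 0, 387 and 1918 bp at 4 months and 2295, 2111 and 1218 bp at 24 months. The nearest old island of H3K27me3 to it was 88800 bp away.

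There were 3 members with H3K36me3 in every old and no young library, and 2 of them were neighbours. These 3 make up 0.242% of the members, where 0.0209% of all merged regions (15 of 71865) had that pattern, and they were singled out after their values were seen. Chromosome 12, 113259401-113268200 had 0, 0 and 0 bp in the young and 1760, 5331 and 4702 bp in the old libraries, a mean of 3931 ± 1906 bp (SD, n = 3) at 24 months. Its H3K27me3 covered 5200 and 7800 bp in young replicates 2 and 3. Starting 1000 bp after it, chromosome 12, 113269201-113283200 had 0, 0 and 0 bp of H3K36me3 at 4 months and 1022, 1381 and 1007 bp at 24 months, with 7400 and 11600 bp of H3K27me3 in the young libraries. Both therefore had H3K27me3 in 2 of 3 libraries only at the younger age and H3K36me3 only at the older age. Neither carried H3K4me3. The third, chromosome 15, 6788601-6799600, had 2126, 2600 and 532 bp of H3K36me3 in the old libraries and none in the young ones, with 10600 and 1600 bp of H3K27me3. The opposite pattern, H3K36me3 in young replicates 5 and 6 and in no old library, was in 2 members (0.161%), against 0.0306% of all merged regions. These were chromosome 8, 107790401-107797000 (280 and 1679 bp) and chromosome 9, 108995601-109000200 (49 and 468 bp), and both had H3K4me3 in all 4 libraries.

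**Figure D4:**
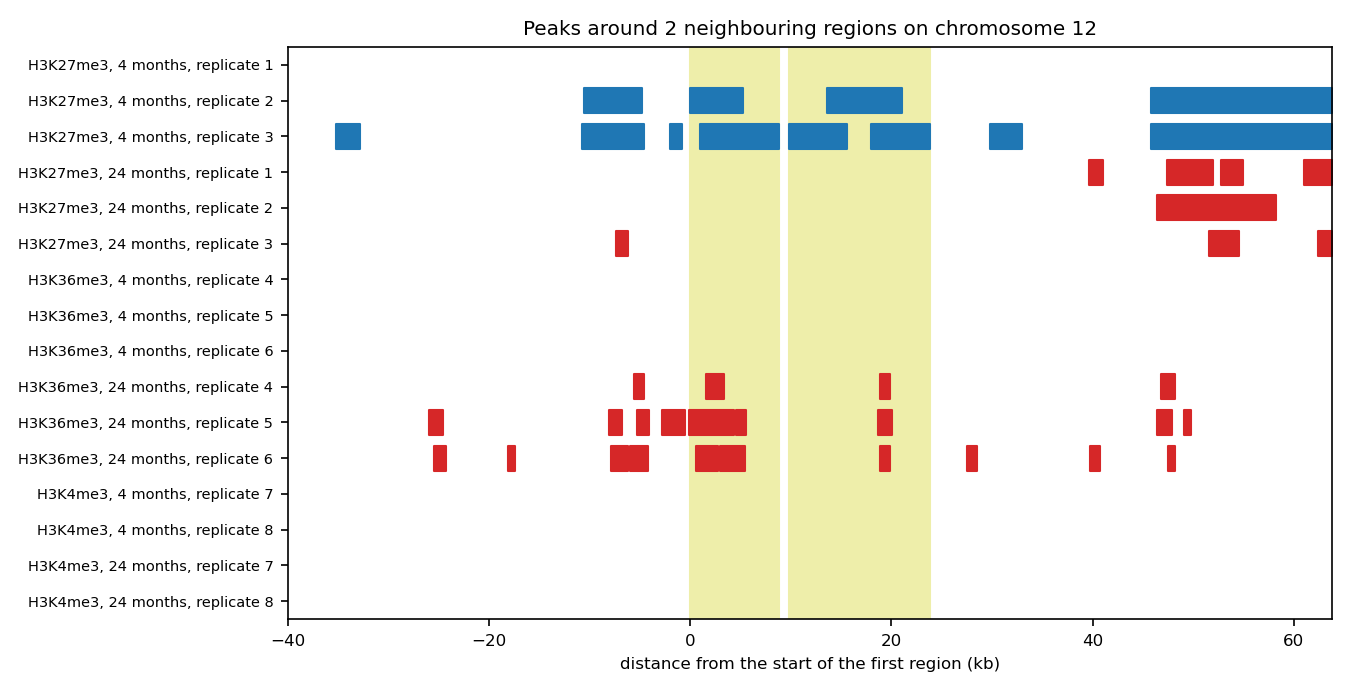
Peaks of all 16 libraries (rows; 4 months in blue, 24 months in red) around the 2 neighbouring chromosome 12 regions, shaded, by distance from the start of the first (x, kb). H3K27me3 of young replicates 2 and 3 and H3K36me3 of the 3 old libraries fall in the shaded parts, and no young H3K36me3 library has a peak in the stretch drawn.

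Around the chromosome 12 pair, the H3K36me3 part of the pattern reached past the members. No young H3K36me3 library had a peak within 40 kb of them, and all 3 old libraries had several. From -10800 to -4600 bp, counted from the start of the first region, young replicate 3 held H3K27me3, and young replicate 2 did so from -10600 to -4800 bp. There old replicate 3 had an island of 1200 bp, which kept that stretch out of the set, and all 3 old libraries had H3K36me3. At 45800 bp began a broad H3K27me3 region of both young libraries that all 3 old libraries touched as well. All 3 old H3K36me3 libraries had peaks in this region too, lying between 46420 and 49773 bp. They overlapped H3K27me3 islands of old replicate 1 (47400 to 52000 bp) and old replicate 2 (46400 to 58200 bp), but none of old replicate 3. Old H3K36me3 was therefore not confined here to stretches without old H3K27me3 islands. Young replicate 1 had no island in the stretch.

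In limma 0 of 646 regions with H3K36me3 in at least 2 libraries passed an adjusted p of 0.05 (0% called), and 25 members entered the test. The first of the chromosome 12 pair had the largest difference, 4.23 (SE 0.62) on the log2(bp + 200) scale with an adjusted p of 0.300. For the second the difference was 2.73 (SE 0.56, adjusted p = 0.368) and for chromosome 15, 6788601-6799600 it was 3.07 (SE 0.74, adjusted p = 0.395). With the young libraries at 0 these differences depend on the added 200 bp. Before adjustment, at the same threshold, these 3 members and 20 of the 646 regions (3.1%) had more H3K36me3 at 24 months, and no region had less. The median difference was 1.23 in the members tested and 0.70 in all regions tested, and without young replicate 4, the short list, 0.29 and 0.15.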

How the data were processed

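The files were peak lists, 1 per library, on mm9. The submitters' processing notes name CASAVA 1.4, SICER and MACS. Caller versions and thresholds, control libraries and depth were not stated there, so no counting error can be given. Each deposited list holds a score per peak whose unit is not stated, and it was used only for ranks and as the authors' value. H3K27me3 lists have the layout of SICER islands with inclusive ends, to which 1 was added.

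A library touched a region when they shared at least 1 bp. Shares were compared with exact permutation tests over libraries, and sets with sign-flip tests. Covered length was tested with limma 3.58.1 (R 4.3.3) on log2(bp + 200), with a trend, over all merged regions that 2 or more libraries covered, adjusted by Benjamini-Hochberg with a threshold of 0.05. This fit was also run on simulated data, with an outcome that is not reported here. Other steps used Python 3.11.15.

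Members, sets and tests were chosen with earlier results of these data known. Named are the 8 members with the largest mean covered length in young replicates 2 and 3, the 5 ranking best in both lists, the 5 each with most H3K4me3, most H3K36me3 and greatest distance from old islands, and 3 on each side of the rule's edge. Other named regions are said to be picked later. Alternatives changed thresholds, overlap, windows, pseudocount, filter and libraries. Replicate numbers were not taken to pair the libraries. Sequences and gene annotation were not used here.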

Additional observations from a re-analysis of the deposited data

Results flagged for a closer look

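Young replicate 1 of H3K27me3 lies outside the rule and enters no test above. It was listed for a closer look because it held 14.8% of the members, where a library with none of them would give 0. The same library held 8.61% of the 24-month-only regions, 11.1% of all merged regions and 16.7% of the regions shared by the 5 other libraries. Its share in the members thus lay within the range of these sets. By length it covered 6.51% of the members, above its 2.57%, 4.47% and 3.73% of the same sets. What such a list would cover elsewhere was not tested, so neither value is taken as a result about the members.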

How the results depend on the processing

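The number of members rested on the lists used. It was 675 when no old island was allowed within 5 kb, 448 with only islands at or above the median score of their list, and 178 when young replicate 1 also had to hold the region. Of the 1242 members, 218 (17.6%) were overlapped by the 448. With equally many top-scoring islands from each list 847 regions met the rule, overlapping 451 members (36.3%). Leaving out 1 library gave 1564 (without old replicate 2) to 16725 regions (without young replicate 2), with 3480 without young replicate 3, 1866 without old replicate 1 and 2019 without old replicate 3. Within 1 title number there were 7296 regions for number 18 and 23884 for number 20. Fewer lists make the rule easier to meet.

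The difference in the H3K4me3 share turned from 1.05 to -0.28 percentage points with equal numbers of peaks. Relative to all merged regions it turned from -0.08 to 0.17 with peaks at or above the median score and to 0.0221 with equal numbers. The cause was not tested. Leaving out 1 library moved the log2 difference in H3K36me3 distance from -0.78 (without young replicate 6) to 0.0141 (without young replicate 4). limma called 133 H3K4me3 regions without a trend, 5 of them members, and 1 H3K36me3 region, no member, with 5 kb added on each side. The H3K4me3 and H3K36me3 differences between 4-month-only and 24-month-only regions kept their direction in 10 of 10 and 12 of 12 alternatives. Of these, only the alternative with 2 libraries of each age changed the H3K27me3 lists behind the sets.

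Replicate numbers shared between ages gave correlations of -0.01 for H3K4me3 and 0.17, -0.22 and 0.14 for H3K36me3, and were not taken to pair the libraries. With 2 H3K4me3 libraries per age all such correlations have the same size by construction, so that value cannot decide. H3K36me3 libraries with the same title number gave 0.17 (number 16) and 0.19 (number 18), above every other pair of that mark. Whether the title number pairs libraries was not tested. With the replicate block limma called 0 regions for either mark, and the H3K4me3 share difference stayed at 1.05 (exact sign-flip p = 0.5). limma without a filter on coverage, and with the title number as a block for H3K4me3, could not be fitted. With 2 or 3 libraries per age, no exact test here between ages could reach 0.05. Depth is unknown for every list.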
